A study of Mus musculus with 12 samples.

Results

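The acute-phase response is the change in the proteins that the liver secretes into blood when tissue is injured or infected. It was followed here through 33 genes listed by name, 25 of them acute-phase proteins or proteins that move with them and 8 of them receptors, signal carriers and transcription factors. All 33 were found by symbol, each once, among the 25069 genes measured, and all 33 were among the 14473 genes tested. RNA of livers from 12 female mice was sequenced, 1 library per mouse and 4 mice per group. Every mouse was itself wild type at Khdc3, whose protein belongs to a maternal complex of the egg and early embryo, and the groups differed in ancestry. WTMM mice had Khdc3-null grandmothers on both the mother's and the father's side, WTPP mice had Khdc3-null grandfathers on both sides, and WT mice had wild-type ancestors alone. The sources used here give no treatment, strain, age or litter, so that mice of 1 group may share parents, and p-values then measure the spread between these mice.

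As background, macrophages and other cells that meet damage release interleukin-6, interleukin-1 and tumour necrosis factor. In hepatocytes, interleukin-6 binds its receptor together with the shared signalling chain gp130, and the kinases of that complex activate the transcription factor STAT3. Interleukin-1 acts through NF-kappaB and through C/EBP factors, and glucocorticoids add to both, so that positive acute-phase proteins such as serum amyloid A are made in larger amounts and negative ones such as albumin in smaller amounts.

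Values below are normalized counts, the number of reads of a gene divided by 1 factor per library, and those of single mice are in the order WTMM 6, 7, 8 and 9, then WTPP 2, 3, 6 and 7, then WT 116, 117, 118 and 120. Means are given ± SD with n = 4 mice per group. Changes are differences of log2(normalized count + 1), a scale that understates the change of low genes, tested with limma and adjusted over all 14473 genes, and a gene was called at an adjusted p under 0.05. Both comparisons with WT use the same 4 WT libraries. Libraries held 25070718 to 35843972 reads assigned to genes, and every member had at least 47 reads in every library. Khdc3 had 7 reads in all 12 libraries together, too few to check the labels. The labels give the cell type as hepatocyte, and the 10 hepatocyte markers were present in every library, but markers of Kupffer cells, neutrophils, lymphocytes and sinusoidal endothelium were present as well.

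WT 116 stood apart from the other WT livers in these genes. It was the highest WT library for 22 of the 33 members, which is 66.7%, against 26.3% of all tested genes. It was the highest of all 12 for 19 members, against 13.8% of all tested genes. It led the WT group for 19 of the 25 acute-phase proteins and for 3 of the 8 signalling genes. WT 117 was the lowest WT library for 18 members and for 36.1% of all tested genes, and the highest for 2 members and 33.4% of all tested genes. Where leaving WT 116 out ended a call or moved a fold by more than 1.5 times, its adjusted p or fold without it is given too. Markers of pancreatic acinar cells also set the WT livers apart. Of 9 tested, 7 fell in each lineage, and reads of these 7 summed to 0 to 11 in WTMM, 0 to 6 in WTPP and 80 to 2207 in WT livers, with WT 116 the highest and WT 117 the lowest of the WT livers. The WT libraries also carry library numbers apart from those of the other groups. If a batch followed these numbers, batch and ancestry cannot be told apart.

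Of the 25 acute-phase proteins, 5 fell in both lineages against WT, and the transcription factor gene Cebpb rose in both; 17 of the 25 were not called in WTMM and 14 were not called in WTPP. Of the 33 members, 9 fell and 1 rose in WTMM against WT, where 10.4% of all tested genes were called (5.94% fell and 4.44% rose). In WTPP against WT, 10 fell and 2 rose, where 10.2% of all tested genes were called (5.53% fell and 4.68% rose). The median log2 change of the members was -0.26 in WTMM and -0.46 in WTPP, against 0.00035 and -0.0076 over all tested genes. Values lay below 0 for 27 members (81.8%) in WTMM and 28 (84.8%) in WTPP, against 49.9% and 51.2% of all tested genes. Between the lineages, 2 members were higher in WTMM than in WTPP and 0 were lower, where 4.17% of all tested genes were called (2.29% higher and 1.88% lower).

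**Figure D1:**
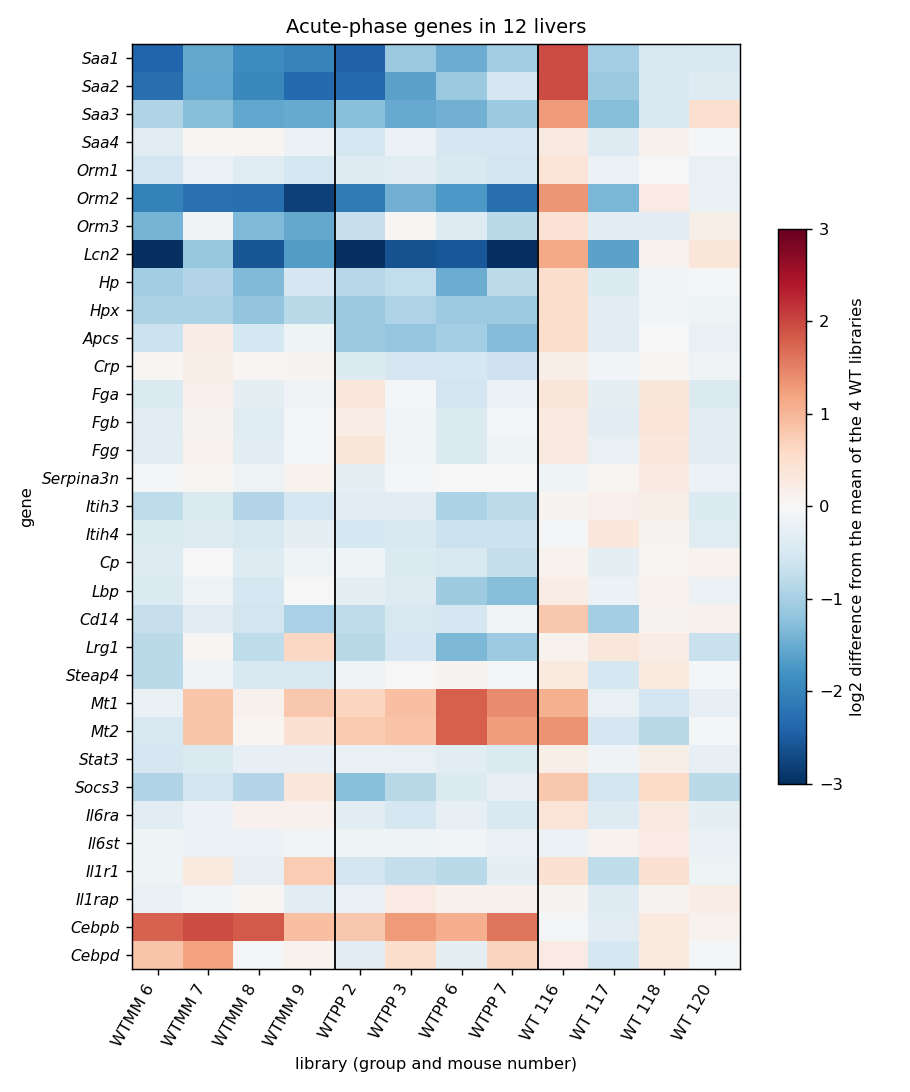
Log2 difference of each of the 33 genes (rows) in each of the 12 libraries (columns) from the mean of the 4 WT libraries, with WTMM, WTPP and WT blocks parted by black lines. Blue is lower and red is higher, the colours end at 3 either way and the lowest value was -3.63; Saa1, Saa2, Orm2 and Lcn2 are the darkest blue rows, Cebpb is red in all 8 WTMM and WTPP libraries, and WT 116 is the reddest WT column.

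Orm2, Lcn2, Hp, Hpx and Itih3 fell in both lineages, which 2.64% of all tested genes did, and Cebpb rose in both, which 1.67% did. Saa1, Saa2, Orm3 and Stat3 fell in WTMM and were not called in WTPP. Saa3, Apcs, Crp, Itih4 and Lbp fell in WTPP and were not called in WTMM, and Mt1 rose in WTPP and was not called in WTMM. Of these 10, Apcs and Crp passed the direct test between WTMM and WTPP, and the other 8 did not, with adjusted p of 0.223 for Lbp to 0.985 for Saa3. The remaining 17 members were called in neither lineage against WT.

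**Figure D2:**
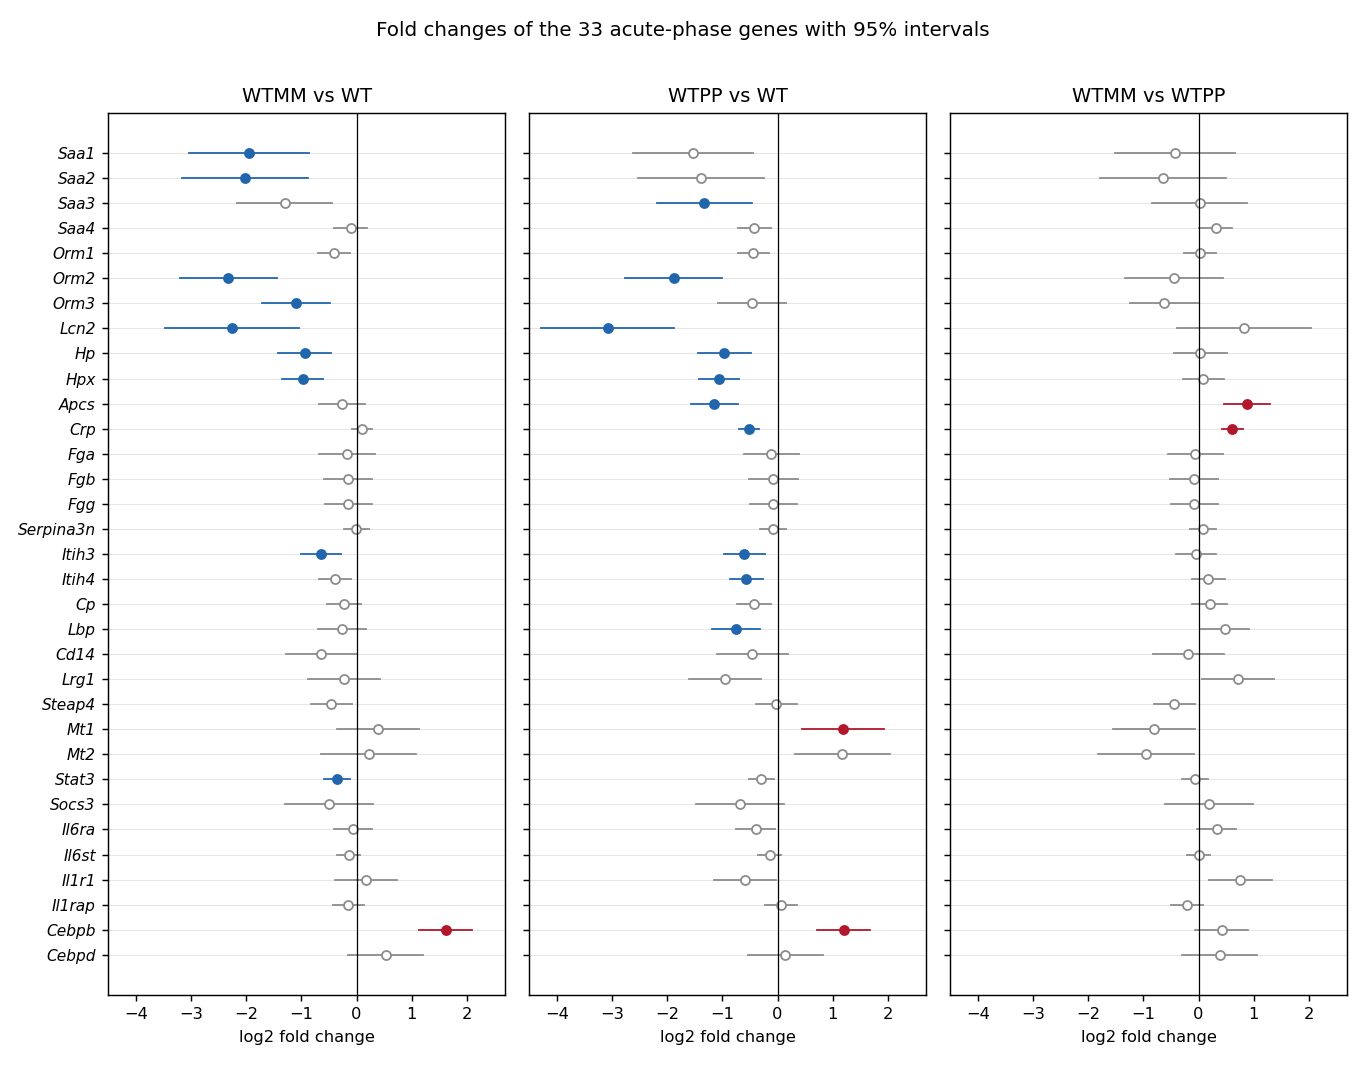
Log2 fold change of each of the 33 genes with its 95% interval in 3 panels, each lineage against WT and then WTMM against WTPP. Filled blue points fell, filled red points rose and open grey points were not called at an adjusted p under 0.05; the fibrinogen genes sit near 0 in all 3 panels, while Apcs and Crp are called between the lineages.

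Serum amyloid A and orosomucoid genes, which lie in clusters of related copies on chromosomes 7 and 4, held several of the members that fell. Saa1 and Saa2 encode the inducible forms of serum amyloid A, which travel on high-density lipoprotein. Of the 4 Saa genes, Saa1 and Saa2 fell in WTMM, Saa3 fell in WTPP, and Saa4, the constitutive form, was called in neither. Saa1 had 354, 634, 502 and 457 normalized counts in WTMM livers, 341, 849.6, 657 and 893 in WTPP livers and 7215, 919.5, 1318 and 1343 in WT livers. All 8 WTMM and WTPP values lay below all 4 WT values, and WT 116 was the highest of all 12. Saa1 was 3.88-fold lower in WTMM (log2 change -1.96, SE 0.51, adjusted p = 0.0267) and 2.88-fold lower in WTPP (log2 change -1.53, SE 0.51, adjusted p = 0.0712). Without WT 116 the log2 change was -1.30 (adjusted p = 0.0256) in WTMM and -0.87 (adjusted p = 0.106) in WTPP. The call in WTMM was lost on removing any of WTMM 6, WTMM 8 or WTMM 9 (then adjusted p = 0.0705, 0.0509 and 0.0618) and with robust empirical Bayes (0.0671).

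Saa2 followed the same order, with 141, 229, 175 and 133 normalized counts in WTMM, 134, 221, 313 and 478 in WTPP and 2619.6, 312, 491 and 517 in WT livers. WTMM lay wholly below WT, while WTPP 6 and WTPP 7 reached into the WT range. Its log2 change was -2.02 ± 0.53 SE in WTMM (adjusted p = 0.0286) and -1.38 in WTPP (adjusted p = 0.113). Without WT 116 it was -1.37 (adjusted p = 0.0412) in WTMM and -0.73 (adjusted p = 0.245) in WTPP. The WTMM call was lost on removing any of WTMM 6, WTMM 8 or WTMM 9 (then adjusted p = 0.0687, 0.0537 and 0.0720) and with robust empirical Bayes (0.0672) and limma-voom (0.0596). The ratio of Saa1 to Saa2 was 2.89 ± 0.392 in WTMM, 2.59 ± 0.879 in WTPP and 2.75 ± 0.148 in WT livers, and in WT 116 it was 2.75. Stretches of 50 bases found in both genes make up 31.1% of Saa1 and 30.0% of Saa2, so reads could be split between them. How the authors' counting treated such reads is not given in the sources used here.

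Saa3, a form made in the mouse largely outside hepatocytes, by macrophages among other cells, had 146, 112, 92.1 and 94.6 normalized counts in WTMM, 113, 94.7, 99.8 and 125 in WTPP and 661, 111, 194 and 378 in WT livers. WT 117, at 111, lay within the range of both other groups, and the other 3 WT livers lay above every WTMM and WTPP liver. The log2 change was -1.31, adjusted p = 0.0521 in WTMM and -1.33, adjusted p = 0.0498 in WTPP. The 2 estimates are almost equal and fall on either side of the threshold. Without WT 116 they were -0.88 (adjusted p = 0.117) and -0.90 (adjusted p = 0.120). The WTPP call was lost in 16 of 22 alternatives, with adjusted p of 0.0506 to 0.120 there, among them the removal of each of WT 116, WT 118 and WT 120 and of any WTMM or WTPP library. Kupffer cell markers, the markers of resident liver macrophages, moved the same way: 11 of 12 fell in WTMM and 12 of 12 in WTPP, and their summed level was 13944 to 18627 in WTMM, 14604 to 18942 in WTPP and 21596 to 46712 in WT livers, highest in WT 116. Their part in the Saa3 difference was not tested, and in whole liver fewer cells of a type and less RNA per cell cannot be told apart. Saa4, the most abundant form per kilobase of exon at 5905, 4741 and 6406 normalized counts per kilobase in WTMM, WTPP and WT, had log2 changes of -0.11, adjusted p = 0.661 in WTMM and -0.42, adjusted p = 0.0709 in WTPP.

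Orosomucoids, or alpha-1-acid glycoproteins, bind basic drugs and other small molecules in plasma. Orm2 and Orm3 fell in WTMM, Orm2 fell in WTPP, and Orm1 was called in neither. Orm2 had 336, 289, 284 and 196 normalized counts in WTMM, 314, 504, 410.1 and 285 in WTPP and 3441, 527, 1610.00 and 1181 in WT livers. All WTMM and WTPP values lay below all WT values, though WT 117 lay close to WTPP 3. Orm2 was 5.01-fold lower in WTMM (log2 change -2.33, SE 0.41, adjusted p = 0.00496) and 3.69-fold lower in WTPP (log2 change -1.88, SE 0.41, adjusted p = 0.0128). Both calls held in all 22 alternatives, and without WT 116 the folds were 3.68 in WTMM (adjusted p = 0.00725) and 2.71 in WTPP (adjusted p = 0.0261). Over those alternatives the adjusted p ran from 0.000179 to 0.0176 in WTMM and from 0.00115 to 0.0405 in WTPP.

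Orm1 is the main orosomucoid transcript of these livers, at 21175 normalized counts per kilobase in WTMM, 20631 in WTPP and 28314 in WT, against 356, 488 and 2181 for Orm2. Its log2 change was -0.41, adjusted p = 0.0684 in WTMM and -0.44, adjusted p = 0.0545 in WTPP. The ratio of Orm2 to Orm1 was 0.0170 ± 0.00431 in WTMM, 0.0235 ± 0.00523 in WTPP and 0.0716 ± 0.0381 in WT livers. WTMM ratios all lay below the WT ratios, and WTPP 3 lay just above WT 117. Orm3 had 372, 906, 393 and 335 normalized counts in WTMM, 611, 996, 744 and 555 in WTPP and 1332, 791, 786 and 1109 in WT livers. WTMM 7 lay within the WT range and the other 3 WTMM livers lay below it, while WTPP 3 alone of the WTPP livers reached into it. Orm3 was 2.13-fold lower in WTMM (log2 change -1.09, SE 0.29, adjusted p = 0.0288), and its log2 change in WTPP was -0.47, adjusted p = 0.320. The WTMM call was lost on removing any of WT 116, WT 120, WTMM 6, WTMM 8 or WTMM 9 (then adjusted p = 0.0864, 0.0648, 0.0782, 0.0687 and 0.0828) and with robust empirical Bayes (0.0526). Stretches of 50 bases shared with other genes make up 20.4% of Orm1, 22.7% of Orm2 and 3.59% of Orm3. The other genes were orosomucoids and, for Orm2, also Gm11212. Those shared with Orm1 make up 20.4% of Orm2, so part of the Orm1 and Orm2 reads could be exchanged between them.

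The promoters of 6 members are shown because close relatives in these families differed in how they moved, and because Fgb and Apcs stand for a gene called in neither lineage and a gene called in WTPP. Each is the 130 bases before the gene's start, from RefSeq on GRCm38.p6, written 5′ to 3′ on the gene's strand. The windows are chr4:63362319-63362448 on the plus strand for Orm2, chr4:63356028-63356157 on the plus strand for Orm3, chr7:46715677-46715806 on the minus strand for Saa3, chr7:46732604-46732733 on the minus strand for Saa4, chr3:83049864-83049993 on the minus strand for Fgb and chr1:172895055-172895184 on the minus strand for Apcs. Capitals mark matches, on either strand, to the C/EBP motif TTGCNNAA or to the type II interleukin-6 element CTGGGAA.
Orm2: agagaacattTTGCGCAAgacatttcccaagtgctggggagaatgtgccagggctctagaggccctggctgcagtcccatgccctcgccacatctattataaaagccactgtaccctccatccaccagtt
Orm3: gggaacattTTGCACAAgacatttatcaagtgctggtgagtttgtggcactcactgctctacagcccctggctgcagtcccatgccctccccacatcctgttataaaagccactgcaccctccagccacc
Saa3: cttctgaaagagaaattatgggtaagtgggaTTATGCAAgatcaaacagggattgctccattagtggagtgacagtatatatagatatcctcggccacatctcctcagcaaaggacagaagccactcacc
Saa4: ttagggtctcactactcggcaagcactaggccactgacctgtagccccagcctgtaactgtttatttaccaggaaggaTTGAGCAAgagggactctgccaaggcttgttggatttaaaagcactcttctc
Fgb: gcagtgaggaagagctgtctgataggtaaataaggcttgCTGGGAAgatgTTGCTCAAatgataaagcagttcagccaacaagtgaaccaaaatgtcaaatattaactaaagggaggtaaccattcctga
Apcs: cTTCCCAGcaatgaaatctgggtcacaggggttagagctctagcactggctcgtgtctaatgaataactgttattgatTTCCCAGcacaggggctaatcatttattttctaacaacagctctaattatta

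Orm2 and Orm3 hold a C/EBP match at almost the same place, and their 250 bases before the start differ by 36 edits. Saa1 and Saa2 differ by 13 edits over the same length, and each has a C/EBP match farther from the start than the bases shown. In Fgb an interleukin-6 element stands next to a C/EBP match, and Apcs holds the element in 2 places. A RefSeq promoter was matched for 28 of the 33 members; Orm1, Cd14, Hp, Lbp and Cebpd are named without one. Over the 250 bases before the start, TTGCNNAA was found in 14 of the 28 members, which is 50%, and in 9.56% of all 32851 promoters in the table. The STAT motif TTCNNNGAA was found in 6 members (21.4%) and 7.02% of all, CTGGGAA in 5 (17.9%) and 9.10% of all, and the NF-kappaB motif GGG, any 2 bases, TTTCC in 2 (7.14%) and 1.41% of all. A member counted as holding a motif if any of its promoters matched. The shares of all count single promoters, so members with several promoters had more openings for a match. Cp, for example, matched in a promoter other than its first. Near copies such as Saa1 and Saa2 counted separately. TTCNNNGAA and CTGGGAA can overlap. The members with a C/EBP match include Orm2, Hpx and Lcn2, which fell in both lineages, and Saa4, Fga, Fgb, Cp, Steap4, Mt2 and Il1r1, which were called in neither. A match is a run of letters and was not tested for binding.

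The binders of haemoglobin, heme and siderophores fell together, 3 of 3 in each lineage. Haptoglobin, encoded by Hp, takes up free haemoglobin, and hemopexin, encoded by Hpx, takes up free heme. Hpx had 85424, 84960.3, 72838 and 94084 normalized counts in WTMM, 75799, 86520.5, 77375 and 77058 in WTPP and 240064, 132697, 156905 and 149243 in WT livers. Neither lineage overlapped with WT, and the highest of the 8 lineage livers, WTMM 9, was well below the lowest WT liver, WT 117. Hpx was 1.97-fold lower in WTMM (log2 change -0.98, SE 0.17, adjusted p = 0.00486) and 2.09-fold lower in WTPP (log2 change -1.06, SE 0.17, adjusted p = 0.00306). Both calls held in all 22 alternatives, with adjusted p of 0.000671 to 0.0158 in WTMM and 0.00132 to 0.0136 in WTPP. Without WT 116 the folds were 1.74 and 1.85.

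Hp had 41783, 46596, 34219.5 and 59964 normalized counts in WTMM, 47548, 51426, 30396 and 49753 in WTPP and 122433, 64909, 80566 and 83686 in WT livers. Here too the 8 lineage livers lay below all WT livers, with WTMM 9 the nearest to them. Hp was 1.91-fold lower in WTMM (log2 change -0.94, SE 0.22, adjusted p = 0.0196) and 1.95-fold lower in WTPP (log2 change -0.96, SE 0.22, adjusted p = 0.0167). Its WTMM call was lost on removing any of WT 116, WTMM 6 or WTMM 8 (then adjusted p = 0.0555, 0.0508 and 0.0529), and its WTPP call on removing WT 116 (then adjusted p = 0.0529). Without WT 116 the log2 change was -0.76 in WTMM and -0.79 in WTPP. Erythroid markers, which could bear on haemoglobin binding, had a summed level of 3147 to 8329 in WTMM, 815 to 17101 in WTPP and 9877 to 24315 in WT livers, and 1 of their 6 tested genes fell in WTMM and 0 in WTPP. Their part in the result was not tested.

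Lipocalin 2, encoded by Lcn2, binds the siderophores with which bacteria take up iron, and is made by hepatocytes in the acute phase as well as by neutrophils. It had 138, 781, 289.99 and 534 normalized counts in WTMM, 138, 279, 294 and 148 in WTPP and 3813, 565, 1842 and 2206 in WT livers. All WTPP livers lay below all WT livers, whereas WTMM 7 lay above WT 117. Lcn2 was 8.46-fold lower in WTPP (log2 change -3.08, SE 0.56, adjusted p = 0.00589), the largest fall of any member, and 4.77-fold lower in WTMM (log2 change -2.26, SE 0.56, adjusted p = 0.0233). The WTPP call held in all 22 alternatives (adjusted p of 0.00124 to 0.0205; log2 change -2.70 without WT 116). The WTMM call was lost on removing any of WT 116, WT 118, WT 120, WTMM 6 or WTMM 8 (then adjusted p = 0.0713, 0.0581, 0.0547, 0.0635 and 0.0541) and with robust empirical Bayes (0.0614). Of 12 neutrophil markers 6 were abundant enough to test, and 5 of these fell in WTMM and 0 in WTPP. Their summed level was 124 to 159 in WTMM, 171 to 309 in WTPP and 244 to 719 in WT livers. Their part in the Lcn2 difference was not tested. Between the lineages the log2 difference of Lcn2 was 0.83, adjusted p = 0.479.

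**Figure D3:**
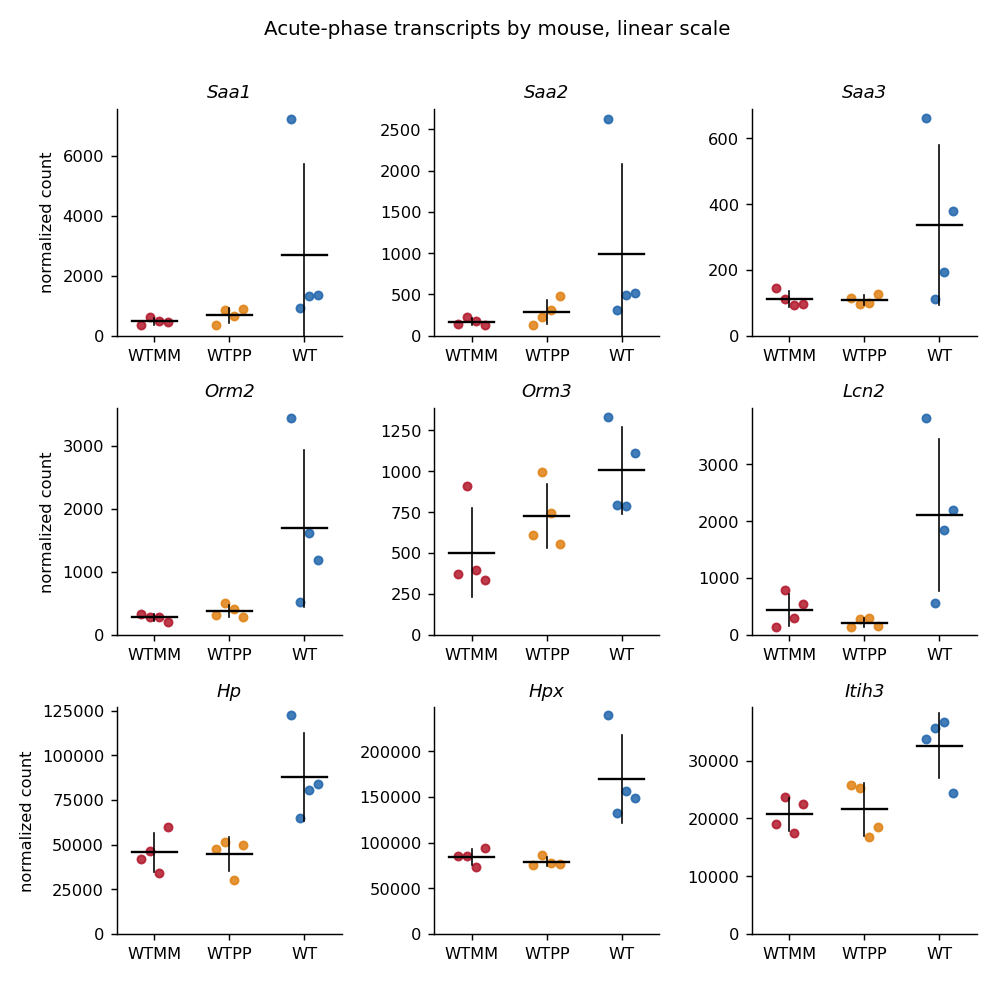
Normalized counts of 9 acute-phase transcripts, 1 point per liver, with the group mean as a horizontal bar and ± 1 SD (n = 4) as a vertical line that is cut at 0; each panel has its own linear axis. WTMM and WTPP points lie below every WT point for Saa1, Orm2, Hp and Hpx, and the top point of the WT group is WT 116 in every panel but Itih3.

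The short pentraxins, ring-shaped proteins that bind damaged cells and bacterial surfaces, parted the lineages. Apcs encodes serum amyloid P component, the major inducible pentraxin of the mouse, and Crp encodes C-reactive protein, which responds weakly in the mouse. Both fell in WTPP against WT, neither was called in WTMM against WT, and both were higher in WTMM than in WTPP. Apcs had 8303, 15079.6, 9005 and 11858 normalized counts in WTMM, 6015, 5802, 6388 and 5203 in WTPP and 18742, 10299, 12930.1 and 11128 in WT livers. All WTPP values lay below all values of the other groups, while WTMM and WT overlapped. Apcs was 1.84-fold higher in WTMM than in WTPP (log2 change 0.88, SE 0.20, adjusted p = 0.0250), and 2.21-fold lower in WTPP than in WT (log2 change -1.15, SE 0.20, adjusted p = 0.00421). The call between the lineages was lost on removing any of WTMM 7, WTMM 9, WTPP 3 or WTPP 7 (then adjusted p = 0.0615, 0.0803, 0.0593 and 0.0587) and with a replicate block (0.299). A replicate block, a term for each mouse number, rests this contrast on WTMM 6, WTMM 7, WTPP 6 and WTPP 7 alone. The call of WTPP against WT held in all 22 alternatives (adjusted p of 0.00261 to 0.0141).

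Crp had 13838, 15349, 14074 and 14328 normalized counts in WTMM, 10118, 9428, 9325 and 8741 in WTPP and 15159, 12661, 13665 and 12447 in WT livers. The WTPP livers lay below all 8 others and varied little among themselves. Crp was 1.53-fold higher in WTMM than in WTPP (log2 change 0.62, SE 0.086, adjusted p = 0.00172). That call held in all 22 alternatives without a replicate block and was lost with the block (adjusted p = 0.160). The block rests on the same-numbered livers alone. Crp was 1.43-fold lower in WTPP than in WT (log2 change -0.52, SE 0.086, adjusted p = 0.00338). In WTMM against WT the log2 change was 0.10 with a 95% interval of -0.086 to 0.28. Without WT 116 the log2 changes of WTPP against WT were -0.97 (adjusted p = 0.0111) for Apcs and -0.46 (adjusted p = 0.0115) for Crp. The Crp calls had adjusted p of 0.00152 to 0.0169 over the alternatives of WTPP against WT.

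The 3 fibrinogen chains, the precursors of fibrin clots, were called in no comparison. Their genes lie side by side on chromosome 3 and were among the most abundant members per kilobase. Fgb ranged over 108929 to 148596 normalized counts in WTMM, 104955 to 162750.00 in WTPP and 110427 to 183269 in WT livers, so that the groups overlapped widely. Against WT its log2 change was -0.16 in WTMM (95% interval -0.59 to 0.28) and -0.074 in WTPP (95% interval -0.51 to 0.36). Fga and Fgg had log2 changes of -0.17 and -0.15 in WTMM and of -0.11 and -0.073 in WTPP. The chains kept their proportions, with a ratio of Fgg to Fgb of 0.790 ± 0.0103 in WTMM, 0.787 ± 0.0537 in WTPP and 0.786 ± 0.0441 in WT livers.

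Among inhibitors and matrix-binding proteins, Itih3 fell in both lineages, Itih4 fell in WTPP and Serpina3n was called in neither. Itih3 and Itih4 encode heavy chains of the inter-alpha-trypsin inhibitor family, and lie next to each other on chromosome 14. Itih3 had 18949, 23738, 17542 and 22432 normalized counts in WTMM, 25704, 25315, 16759.7 and 18581 in WTPP and 33778, 35582, 36599 and 24332 in WT livers. Here WT 120 was the low WT liver. It lay just above the highest WTMM liver and below 2 WTPP livers. Itih3 was 1.57-fold lower in WTMM (log2 change -0.65, SE 0.17, adjusted p = 0.0280) and 1.52-fold lower in WTPP (log2 change -0.60, SE 0.17, adjusted p = 0.0392). The WTMM call was lost on removing any of WT 116, WT 117, WT 118, WTMM 6 or WTMM 8 (then adjusted p = 0.0711, 0.0513, 0.0792, 0.0733 and 0.0728). The WTPP call was lost on removing any of WT 116, WT 117, WT 118, WTMM 6, WTPP 6 or WTPP 7 (then adjusted p = 0.0977, 0.0646, 0.107, 0.0506, 0.110 and 0.103) and with no filter on low values (0.0619) and the fit of the compared groups alone (0.0772).

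Itih4 had 58264, 59203, 55139 and 63718 normalized counts in WTMM, 53942, 56387, 49602 and 49343 in WTPP and 75099.6, 97324, 81639 and 59946 in WT livers, with WTPP wholly below WT and WTMM 9 within the WT range. It was 1.48-fold lower in WTPP (log2 change -0.57, SE 0.14, adjusted p = 0.0215), and its log2 change in WTMM was -0.39, adjusted p = 0.0865. The WTPP call was lost on removing any of WT 118, WTPP 6 or WTPP 7 (then adjusted p = 0.0610, 0.0567 and 0.0596) and with no filter on low values (0.0590) and the fit of the compared groups alone (0.0631). Serpina3n, a serine protease inhibitor, averaged 10104 ± 775 in WTMM, 9553 ± 853 in WTPP and 10178 ± 1434 in WT livers, with 95% intervals of the log2 change of -0.24 to 0.23 in WTMM and -0.32 to 0.15 in WTPP.

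Lipopolysaccharide-binding protein, encoded by Lbp, hands bacterial lipopolysaccharide to CD14. Lbp fell in WTPP and was not called in WTMM, and Cd14 was called in neither. Lbp had 3194, 3893, 2957 and 4324 normalized counts in WTMM, 3525, 3281, 2053 and 1763 in WTPP and 5023, 3802, 4634 and 3781 in WT livers. The WTPP livers lay below all WT livers, WTPP 6 and WTPP 7 farthest, and WTMM and WT overlapped. Lbp was 1.68-fold lower in WTPP (log2 change -0.75, SE 0.20, adjusted p = 0.0341), and its log2 change in WTMM was -0.27, adjusted p = 0.422. The WTPP call was lost on removing any of WT 116, WT 118, WTPP 6 or WTPP 7 (then adjusted p = 0.0999, 0.0872, 0.0933 and 0.0892) and with the fit of the compared groups alone (0.0662). Cd14, also a monocyte and macrophage gene, ranged over 96.6 to 153 in WTMM, 112 to 182 in WTPP and 94.0 to 338 in WT livers, with WT 116 the highest and WT 117 the lowest of all 12. Lrg1, a secreted leucine-rich glycoprotein, averaged 6631 ± 3216 in WTMM, 3786 ± 975 in WTPP and 7371 ± 2000.1 in WT livers, with log2 changes of -0.23, adjusted p = 0.665 in WTMM and -0.95, adjusted p = 0.0624 in WTPP.

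Of the 4 metal-handling members, 1 rose and 0 fell in WTPP, and none was called in WTMM. Metallothioneins, encoded by Mt1 and Mt2, bind zinc and copper and are induced by metals, glucocorticoids and interleukin-6. Mt1 rose in WTPP and was not called in WTMM, and Mt2, Cp and Steap4 were called in neither. Mt1 had 3897, 7991, 4938 and 7856 normalized counts in WTMM, 7023, 8375, 15624 and 12109.5 in WTPP and 9375, 3827, 3011 and 3798 in WT livers. WT 116 was far above the other WT livers and lay within the WTPP range, and the other 3 lay below every WTPP liver. Mt1 was 2.28-fold higher in WTPP (log2 change 1.19, SE 0.35, adjusted p = 0.0435), and its log2 change in WTMM was 0.39, adjusted p = 0.498. Without WT 116 the log2 change in WTPP was 1.54 (adjusted p = 0.0115). The WTPP call was lost in 12 of 22 alternatives, with adjusted p of 0.0503 to 0.124 there. Removing any of WT 117, WT 118, WT 120, WTMM 7, WTMM 8, WTPP 3, WTPP 6 or WTPP 7 was enough (adjusted p of 0.0766, 0.124, 0.0921, 0.0503, 0.0545, 0.0528, 0.119 and 0.102).

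Mt2 had 2355, 5819, 3389 and 4466 normalized counts in WTMM, 5664, 5901, 11225 and 7778 in WTPP and 8348, 2314, 1832 and 3193 in WT livers, again with WT 116 the highest WT liver. Its log2 change was 1.17, adjusted p = 0.0805 in WTPP and 0.22, adjusted p = 0.766 in WTMM. Without WT 116 it was 1.62 (adjusted p = 0.0117) in WTPP, over alternatives whose adjusted p ran from 0.0117 to 0.207. A transcript on the opposite strand, Gm45774, covers 73.5% of the exon bases of Mt2, and averaged 1.51 normalized counts over the 12 libraries. Cp encodes ceruloplasmin, the copper ferroxidase of plasma, and averaged 36707 ± 4865 in WTMM, 32098 ± 5439 in WTPP and 43170.1 ± 5341 in WT livers. Steap4, a metalloreductase of the cell membrane, averaged 2683 ± 545 in WTMM, 3587 ± 218 in WTPP and 3726 ± 921 in WT livers. Log2 changes were -0.43, adjusted p = 0.0719 for Cp in WTPP and -0.46, adjusted p = 0.105 for Steap4 in WTMM.

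**Figure D4:**
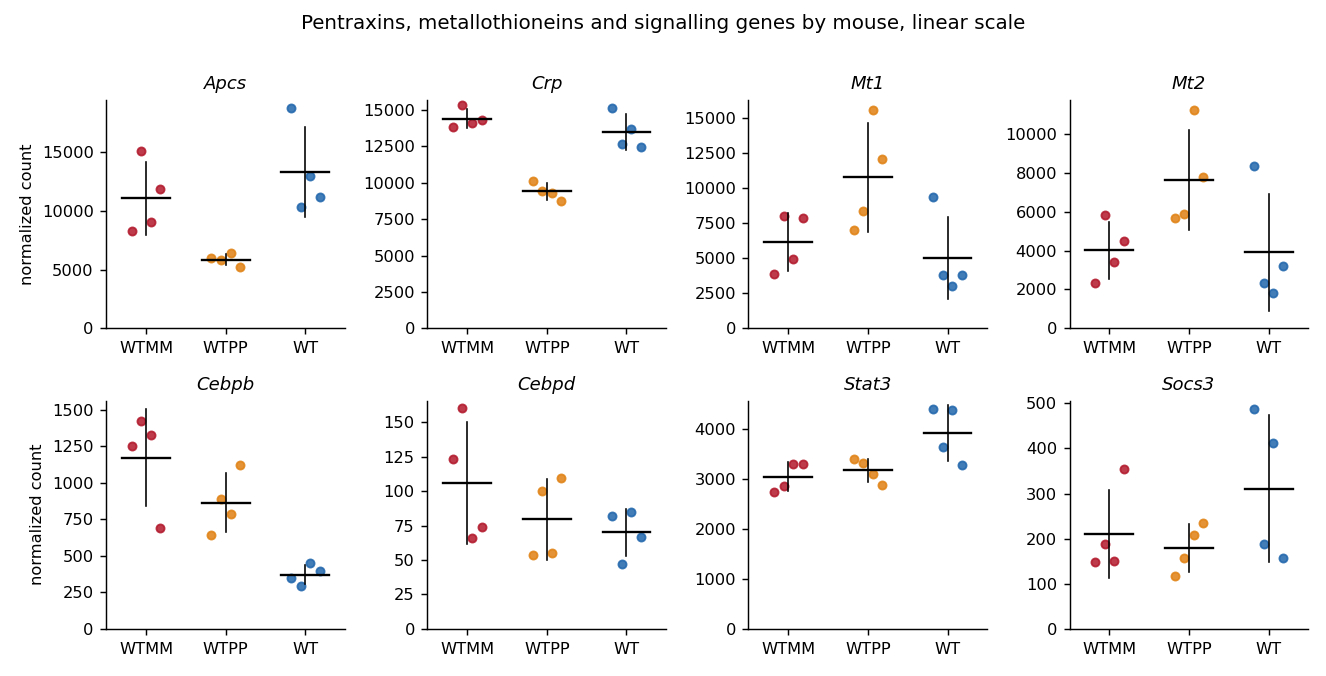
Normalized counts of 8 genes, 1 point per liver, with the group mean as a horizontal bar and ± 1 SD (n = 4) as a vertical line; each panel has its own linear axis. WTPP lies below all other livers for Apcs and Crp, and WTMM and WTPP both lie above all WT livers for Cebpb.

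Of the 8 signalling members, Cebpb rose in both lineages and Stat3 fell in WTMM. Cebpb encodes C/EBP-beta, a transcription factor of acute-phase promoters. It had 1249.6, 1423, 1325 and 688 normalized counts in WTMM, 645, 890.3, 789 and 1124 in WTPP and 351, 293, 448 and 396 in WT livers. All 8 lineage livers lay above all 4 WT livers. Taken singly, WTMM livers lay wholly above WT for 9.29% of all tested genes and WTPP livers for 7.33%. The share for both lineages at once was not counted. Cebpb was 3.06-fold higher in WTMM (log2 change 1.62, SE 0.22, adjusted p = 0.00122) and 2.29-fold higher in WTPP (log2 change 1.20, SE 0.22, adjusted p = 0.00614). Both calls held in all 22 alternatives, with adjusted p of 0.000295 to 0.00571 in WTMM and 0.00153 to 0.0199 in WTPP, and without WT 116 the log2 changes were 1.59 and 1.18. WT 116, the WT liver highest in most secreted proteins, was not the highest in Cebpb. The ratio of Cebpb to Cebpa, the gene of the C/EBP factor abundant in resting hepatocytes, was 0.112 ± 0.0364 in WTMM, 0.0875 ± 0.0120 in WTPP and 0.0348 ± 0.00657 in WT livers. An exon of Tmem189 on the opposite strand covers 20.7% of Cebpb, and whether counting used strand is not given in the sources used here. Tmem189 averaged 169 normalized counts over the 12 libraries.

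Stat3 fell in WTMM. It had 2739, 2872, 3298 and 3303 normalized counts in WTMM, 3400.1, 3329, 3108 and 2890.3 in WTPP and 4404, 3641, 4390.4 and 3282 in WT livers, so that WT 120 lay within the range of the lineages. Its log2 change was -0.36, adjusted p = 0.0494 in WTMM and -0.30, adjusted p = 0.0951 in WTPP. The WTMM call was lost in 13 of 22 alternatives, with adjusted p of 0.0503 to 0.131, among them the removal of any library other than WT 117 or WT 120. Its log2 change in WTMM without WT 116 was -0.30 (adjusted p = 0.130). Socs3, the feedback inhibitor that STAT3 induces, ranged over 148 to 354 in WTMM, 117 to 236 in WTPP and 158 to 487 in WT livers and was called in neither lineage. Cebpd, the gene of C/EBP-delta, averaged 106 ± 44.2 in WTMM, 79.7 ± 29.3 in WTPP and 70.2 ± 17.0 in WT livers, with log2 changes of 0.53, adjusted p = 0.301 in WTMM and 0.14, adjusted p = 0.818 in WTPP. Spidr, on the opposite strand, covers 15.0% of the exon bases of Cebpd. It averaged 182 normalized counts over the 12 libraries, more than Cebpd in any group, and the use of strand in counting is not given.

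None of the 4 receptor genes was called in any comparison. Il6ra, the interleukin-6 receptor, averaged 1542 ± 235 in WTMM, 1219 ± 108 in WTPP and 1640.3 ± 429 in WT livers. Il6st, which encodes gp130, varied least of the 4, with 95% intervals of its log2 change of -0.35 to 0.069 in WTMM and -0.35 to 0.068 in WTPP. Il1r1, the interleukin-1 receptor, had 939, 1260.2, 859 and 1727 in WTMM, 696, 624, 589 and 833 in WTPP and 1406, 606, 1409.5 and 915 in WT livers. Every WTMM value of Il1r1 lay above every WTPP value, as for 6.94% of all tested genes (the reverse held for 6.23%), and the log2 difference between the lineages was 0.76, adjusted p = 0.131. Il1rap, its accessory chain, had log2 changes of -0.15 in WTMM and 0.065 in WTPP.

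Summed over the 33 genes, acute-phase transcripts made up 2.40 ± 0.279% in WTMM, 2.39 ± 0.300% in WTPP and 3.21 ± 0.695% in WT livers. WT 116 held 4.09%. WT 117 held 2.58%, below WTMM 7 and WTMM 9 (each 2.64%) and WTPP 2 (2.73%), so the groups overlapped. The fibrinogen genes, called in no comparison, averaged 342076 of 693156 summed normalized counts in WTMM. They averaged 363320 of 689540 in WTPP and 388575 of 922256 in WT. The difference in the summed share was not tested. WTMM livers lay below all WT livers without exception for Saa1, Saa2, Orm2, Hp, Hpx and Itih3, 6 members, where 9.55% of all tested genes did so. WTPP livers did for Saa1, Orm1, Orm2, Lcn2, Hp, Hpx, Apcs, Crp, Itih4 and Lbp, 10 members, where 7.81% of all tested genes did so. The share of all tested genes that did so in both lineages at once was not counted.

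Further genes of the response were followed from other lists. Of 18 tested positive acute-phase proteins outside the 33, 2 fell and 0 rose in WTMM, and 3 fell and 1 rose in WTPP. Of all tested genes, 5.94% fell and 4.44% rose in WTMM, and 5.53% fell and 4.68% rose in WTPP. The counts of every list below stand against these same shares, and no list was tested as a set. Complement component C3 fell in both, at 1.53-fold in WTMM (adjusted p = 0.0336) and 1.63-fold in WTPP (adjusted p = 0.0189). Complement factor B, encoded by Cfb, fell in WTMM (-0.47, adjusted p = 0.0467), and C4b (-0.50, adjusted p = 0.0457) and fibrinogen-like 1, Fgl1 (-1.02, adjusted p = 0.0312), fell in WTPP. The C3 call in WTMM was lost without WTMM 6, WTMM 7, WTMM 8, WTMM 9, WT 116 or WT 118 (adjusted p up to 0.0857), and that in WTPP was lost without WTPP 7 or WT 116 (adjusted p up to 0.0640). The Cfb call held without WTMM 9, WTPP 2, WTPP 7 or WT 120 and was lost without any other library (adjusted p up to 0.125). The C4b call held without WTMM 9 or WT 120 and was lost without any other library (adjusted p up to 0.125), and the Fgl1 call was lost without WTPP 3, WTPP 6, WTPP 7, WT 116 or WT 118 (adjusted p up to 0.0952). Leaving out WT 116, the log2 change was -0.57 (adjusted p = 0.0857) in WTMM and -0.66 (adjusted p = 0.0572) in WTPP for C3, -0.51 (adjusted p = 0.0683) for Cfb in WTMM, -0.48 (adjusted p = 0.110) for C4b in WTPP and -0.84 (adjusted p = 0.0952) for Fgl1 in WTPP. Il1rn, the interleukin-1 receptor antagonist, averaged 79.2 ± 8.59 in WTMM, 211 ± 69.8 in WTPP and 123 ± 17.2 in WT livers. It rose in WTPP (0.73, adjusted p = 0.0371) and was lower in WTMM than in WTPP (-1.35, adjusted p = 0.00292). Its call in WTPP against WT was lost without WTPP 6, WTPP 7, WT 116, WT 117 or WT 118 (adjusted p up to 0.0964), with a log2 change of 0.76 (adjusted p = 0.0716) without WT 116, and that between the lineages held on leaving out each library in turn.

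Of 10 negative acute-phase proteins, 0 rose in either lineage, and transferrin, encoded by Trf, fell in both (-0.44, adjusted p = 0.0250 in WTMM and -0.57, adjusted p = 0.00809 in WTPP). Its WTPP call held on leaving out each library in turn, and its WTMM call was lost without WTMM 6, WTMM 9 or WT 116 (adjusted p up to 0.0736), with a log2 change of -0.39 (adjusted p = 0.0725) without WT 116. The median log2 change of the 10 was -0.15 in WTMM and -0.026 in WTPP. Among these, Ttr, the thyroxine carrier, averaged 138425 ± 12744 in WTMM, 190484 ± 48430.1 in WTPP and 161677 ± 22513 in WT livers and was called in neither.

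In the interleukin-6 type signalling list, 1 of 20 tested genes rose and 5 fell in WTMM, and 0 rose and 2 fell in WTPP. Lifr, the receptor for leukaemia inhibitory factor, averaged 25609 ± 6134 in WTMM, 10824 ± 3254 in WTPP and 13644 ± 1874 in WT livers. It rose in WTMM (0.89, adjusted p = 0.0133) and was 2.38-fold higher in WTMM than in WTPP (adjusted p = 0.00336). In the interleukin-1, tumour necrosis factor and NF-kappaB list, 1 of 32 rose and 5 fell in WTMM, and 3 rose and 3 fell in WTPP. Chuk, which encodes a kinase of the NF-kappaB pathway, rose in both (0.55, adjusted p = 0.00240 in WTMM and 0.40, adjusted p = 0.0122 in WTPP). Nfkbiz, a nuclear co-regulator that NF-kappaB induces, fell in both (-1.22, adjusted p = 0.0205 in WTMM and -1.23, adjusted p = 0.0191 in WTPP). Tnf, a macrophage cytokine gene near the lower limit of the tested genes, averaged 8.70 ± 6.63 in WTMM, 2.43 ± 0.839 in WTPP and 19.8 ± 9.81 in WT livers and fell in WTPP (-2.52, adjusted p = 0.0191). The calls of Lifr and Chuk held on leaving out each library in turn. The Nfkbiz call in WTMM was lost without WTMM 7, WTMM 8, WT 116 or WT 118 (adjusted p up to 0.0605), and that in WTPP was lost without WT 116 or WT 118 (adjusted p up to 0.0555). The Tnf call was lost without WT 116 (adjusted p = 0.0664). With WT 116 left out, the log2 change was -1.21 (adjusted p = 0.0517) in WTMM and -1.22 (adjusted p = 0.0529) in WTPP for Nfkbiz and -2.23 in WTPP for Tnf.

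Of 17 hepatocyte transcription factor genes that act on acute-phase promoters, 0 were called in WTMM, and 2 rose and 2 fell in WTPP. Hnf4a, a factor of hepatocyte identity, fell in WTPP (-0.39, adjusted p = 0.0222), and Jun rose (1.12, adjusted p = 0.0483). The Hnf4a call was lost without WTPP 6, WTPP 7 or WT 116 (adjusted p up to 0.0692). The Jun call held without WTMM 6, WTMM 7, WTPP 2 or WTPP 3 and was lost without any other library (adjusted p up to 0.128). Their log2 changes without WT 116 were -0.40 (adjusted p = 0.0522) and 1.09 (adjusted p = 0.111). Of 12 genes that respond to glucocorticoids or metals, 4 rose and 2 fell in each lineage. Dusp1, a phosphatase gene that glucocorticoids induce, averaged 1662 ± 851 in WTMM, 1869 ± 245 in WTPP and 408 ± 98.6 in WT livers, and rose in both (1.90, adjusted p = 0.00229 in WTMM and 2.21, adjusted p = 0.000925 in WTPP). Per1, a circadian clock gene, rose in both as well (1.84, adjusted p = 0.00741 in WTMM and 1.28, adjusted p = 0.0375 in WTPP). Zbtb16, a transcription factor gene that glucocorticoids induce, averaged 259 ± 295 in WTMM, 159 ± 109 in WTPP and 1032 ± 427 in WT livers, and fell in both (-2.44, adjusted p = 0.0267 in WTMM and -2.89, adjusted p = 0.0125 in WTPP). Hmox1, the heme oxygenase that macrophages also make, fell in both (-1.04, adjusted p = 0.00865 in WTMM and -1.21, adjusted p = 0.00435 in WTPP). The calls of Dusp1 and Hmox1 in both lineages, of Per1 in WTMM and of Zbtb16 in WTPP held on leaving out each library in turn. The Per1 call in WTPP held without WTMM 6, WTMM 8, WTMM 9 or WTPP 2 and was lost without any other library (adjusted p up to 0.1002). The Zbtb16 call in WTMM was lost without WTMM 6, WTMM 7, WTMM 8, WT 116, WT 118 or WT 120 (adjusted p up to 0.0771). On leaving out WT 116, the log2 change was 1.22 (adjusted p = 0.0969) for Per1 in WTPP and -2.21 (adjusted p = 0.0771) for Zbtb16 in WTMM. Fkbp5, another glucocorticoid-induced gene, was called between the lineages alone, 2.14-fold higher in WTMM than in WTPP (adjusted p = 0.0344), a call that was lost without WTMM 7, WTMM 8, WTMM 9, WTPP 3 or WTPP 6 (adjusted p up to 0.113). The time of day at which livers were taken is not given in the sources used here.

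Markers of immune cells and of pancreatic acinar cells were lower as well. Beside the Kupffer cell and neutrophil markers above, 8 of 11 tested T and NK cell markers and 5 of 8 B cell markers fell in WTMM, and 3 of each fell in WTPP. The summed T and NK cell level was 159 to 179.7 in WTMM, 207 to 224 in WTPP and 294 to 775 in WT livers, with WT 116 the highest. Of 6 monocyte markers 2 fell in WTMM and 0 in WTPP, with sums of 2489 to 3069 in WTMM, 2604 to 3148 in WTPP and 1932 to 7055 in WT livers. Of 10 hepatocyte markers 1 rose and 2 fell in WTMM, and 0 rose and 2 fell in WTPP. Cpb1, which encodes the pancreatic carboxypeptidase B, had 0 reads in each of the 8 WTMM and WTPP livers and 523, 15, 43 and 81 reads in WT 116, 117, 118 and 120. Of the 11 acinar markers, 4 had 0 reads in all 4 WTMM livers, 4 in all 4 WTPP livers and 0 in all 4 WT livers, and WT 116 was the highest of all 12 libraries for 10. The summed acinar level was 1330.2 to 1736 in WTMM, 483 to 1250.5 in WTPP and 1219 to 3625 in WT livers; Cela1, called in neither lineage, made up the larger part of it in every library but WT 116. No marker of the Kupffer cell, monocyte, T and NK cell or B cell lists was at 0 in all libraries of a group. The part of these cells in the acute-phase differences was not tested.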

How the data were processed

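The labels' protocols name a Qiagen kit meant for fatty tissue for RNA and a directional NEB kit for libraries. Builds and tools named in the submitters' processing notes are GRCm38, cutadapt, HISAT2 and DESeq2, with no versions; neither the gene counter nor its use of strand is given in the sources used here. The authors deposited log2 values, as log2(normalized count + 0.1), in a table of 25069 genes and 12 columns, each of which was used. With 0.1 taken off the antilog, 100% of the values in each library were whole multiples of 1 step to within 0.001 read, which gave whole reads and library totals of 25070718 to 35843972. The deposit calls the values normalized counts; the log2 form and the added 0.1 were read from the values.

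Log2(normalized count + 1) was tested with limma 3.58.1 in R 4.3.3, with 3 group means and a trend of variance on the mean, and p-values were adjusted by Benjamini and Hochberg's method over the 14473 genes whose mean was at least 10. Adjusted p-values are from this fit unless another fit or a left-out library is named beside them. The spread between mice, at 4 per group, limits the precision. The members and lists were chosen with earlier results of these data known. Named genes were all members, and from each other list up to 4 called genes per comparison by p, or the 2 lowest where none was called; text names a selection of them. Cell type markers were fixed lists. Gene coordinates, overlaps and shared 50-base stretches came from GENCODE M21 and promoters from RefSeq. Motifs were searched on both strands. The procedure was run on simulated reads with known changes. These held no outlying library, shared parents or batch, so the run does not cover such effects. Alternatives changed the pseudocount, filter, scaling, model and libraries. No set test was run. The 18 pairs of libraries within groups correlated at 0.975 to 0.990 over genes in log2 values, and each counted once.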

Additional observations from a re-analysis of the deposited data

Results flagged for a closer look

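In 7 of 99 sets of 4 livers, 1 per member and group, the highest or lowest liver was far from the other 3; chance gives about 1 in 20. WT 116 was such a high liver for Saa1 at 7215 normalized counts, for Saa2 at 2619.6 and for Mt1 at 9375. Among descendants of null grandfathers, WTPP 3 was high for Saa4 at 11733 and for Hpx at 86520.5. WTMM 7 was high for Orm3 at 906, and without it the log2 change of Orm3 in WTMM against WT kept its direction. WT 117 was low for Cp at 35209.6.

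Apcs and Crp differed between the lineages by the direct test. For Apcs the log2 change against WT was -0.26 in WTMM and -1.15 in WTPP, a difference of 0.88 (adjusted p = 0.0250). For Crp it was 0.10 in WTMM and -0.52 in WTPP, a difference of 0.62 (adjusted p = 0.00172). Both genes were higher in 4 of 4 WTMM livers than in any WTPP liver, as were 6.94% of all tested genes. Of the 33 members 3 were so placed, Apcs, Crp and Il1r1.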

How the results depend on the processing

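Over 22 alternatives, 3 of the 10 member calls in WTMM against WT (Orm2, Hpx and Cebpb) and 6 of 12 in WTPP against WT (Orm2, Lcn2, Hpx, Apcs, Crp and Cebpb) held throughout. No called member changed direction in any alternative. Leaving out 1 library moved the count of called members over 3 to 13 in WTMM against WT, 7 to 18 in WTPP against WT and 1 to 2 between the lineages, and that of called genes over 822 to 1795, 742 to 1997 and 266 to 824. Members called in WTMM against WT numbered 5 without WT 116, 3 without WTMM 6 or WTMM 8 and 6 without WTMM 9, and in WTPP against WT 7 without WT 118, WTPP 6 or WTPP 7. Robust empirical Bayes left 6 members called in WTMM against WT, array weights called 2655 genes there, and the fit of the compared groups alone called 858 genes in WTPP against WT. The cause was not tested. On the recovered reads limma-voom called 1421 genes in WTMM against WT, 1479 in WTPP against WT and 538 between the lineages, against 1502, 1479 and 603 on the log2 values. The numbers 6 and 7 occur in both lineages. Deviations from the group mean correlated over genes at r = -0.153 and -0.066 in same-numbered livers. WTMM 6 with WTPP 7 gave r = 0.159, and WTMM 7 with WTPP 6 gave r = 0.044. These correlations cannot decide whether the numbers pair the mice, because a shared origin need not show in them. With a replicate block, 32 genes and 0 members were called between the lineages by limma, with adjusted p of 0.299 for Apcs and 0.160 for Crp, and 1636 genes and 11 members had an unadjusted p under 0.05; without the block these were 2687 genes and 10 members. A block on the numbers rests the contrast on the livers numbered 6 and 7 alone and leaves few degrees of freedom. The other livers of each lineage do not enter it. Depth limits Cebpd, Saa3 and Cd14 most, the lowest members in reads.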
